A study of Mus musculus with 6 samples.

Results

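Ephrins and Eph receptors, Slits and Robo receptors, and netrins and their receptors steer migrating cells and growing axons, and 40 of their genes were followed here in RNAseq data of mouse cells that were sorted for GFP and labelled neural crest cells (NCCs). They were chosen by name: 14 Eph receptors, 8 ephrins, 3 Slits, 4 Robo receptors, 5 netrins or netrin-G proteins and 6 netrin receptors, which makes 24 receptors and 16 ligands. Of the 40 genes, 39 were matched among the 46983 genes listed in the count table, and 33 passed the filter on low counts, which left 13961 genes to be tested. The level of Ntn3 was not analysed here.

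Eph receptors are receptor tyrosine kinases whose ligands, the ephrins, are held in the membrane of the neighbouring cell, so that contact between cells sets off signals in either of them, most often repulsion. Slits are secreted repellents read by Robo receptors, and netrins are secreted cues that attract through Dcc and repel through the Unc5 receptors. In the embryo, Eph and ephrin boundaries keep streams of cranial NCCs apart, Slits and Robo receptors bound the paths of trunk NCCs, and netrins guide commissural axons to the floor plate.

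The study asked what BAF155 and BAF170, core subunits of the BAF chromatin remodeling complex, do in NCCs, and RNA was sequenced from cells sorted at E11.25 for GFP. The control genotype was Wnt1-Cre/+ with BAF155 flox/+, BAF170 flox/+ and Rosa26 mTmG/+, and the deficient genotype carried the same Cre and reporter with flox/flox at BAF155 and at BAF170, with 3 samples of each. Controls therefore kept 1 intact allele of each gene. The study states that Wnt1 is also on in dorsal neural precursors, from which cells of the central nervous system arise as well. Cells other than NCCs can therefore carry GFP. By the study's methods the cells came from 3 embryos of each genotype, and the p-values measure the spread between these samples.

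The control libraries held 9662823, 8191219 and 11661941 counts on genes and the deficient libraries 12633319, 16557026 and 19808620, in the order of the replicates. Levels are given as counts scaled to library size (CPM), with TMM factors applied to the library totals, or as CPM per kilobase of exon (RPKM) where genes are set against each other. A gene was called when edgeR's quasi-likelihood test gave a Benjamini-Hochberg adjusted p no higher than 0.1, the log2 fold change was 0.58 or more in size and the mean level was 2 CPM or more. Fold changes are deficient against control, and errors are standard errors unless marked SD.

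Smarcc1, which encodes BAF155 (ENSMUSG00000032481.16, chr9:110117708-110240178 of GRCm38), had control levels (replicates 1 to 3, here and in what follows) of 42.1, 55.0 and 35.1 CPM and deficient levels of 29.4, 26.4 and 24.5 CPM. The deficient libraries were lower than the controls, without overlap. Its log2 fold change was −0.71 ± 0.16 (edgeR, Benjamini-Hochberg adjusted p = 0.0676), and 0.06 when the libraries were scaled to marker genes of embryonic cells, a setting described with the results it moves. Its call ended when control replicate 1 was left out (edgeR, Benjamini-Hochberg adjusted p = 0.222), or deficient replicate 2 (0.132), or deficient replicate 3 (0.225), within a range of 2.91e-08 to 0.903 over the edgeR, DESeq2 and limma-voom alternatives, and without control replicate 2 the log2 fold change of −0.53 missed the fold threshold, as did −0.57 after correction for exon length. Smarcc2, which encodes BAF170 (ENSMUSG00000025369.14, chr10:128459248-128490482), had control levels of 91.8, 89.9 and 92.9 CPM and deficient levels of 85.9, 82.3 and 86.8 CPM. These groups did not overlap either, but they lay close together, with a log2 fold change of −0.11 ± 0.06 (edgeR, Benjamini-Hochberg adjusted p = 0.251) that became 0.63 under the embryonic scaling. A count per gene does not separate exons, so transcripts lacking only the floxed exons still count, and these levels check the labels in part.

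The sorted cells were compared with marker genes of the cell types a sort of GFP-positive cells could hold. Twist1, a mesenchymal crest factor, had control levels of 9.68, 13.1 and 5.91 CPM and deficient levels of 4.46, 4.52 and 3.56 CPM, and Sox10, the factor of migrating and glial crest, had 4.36, 7.76 and 2.22 CPM against 1.49, 0.855 and 1.19 CPM. Both were lower in the deficient libraries, without overlap, and both were called, Sox10 (edgeR, Benjamini-Hochberg adjusted p = 0.0625) on 14 to 58 reads a library. Foxd3, another early crest factor, had only 2 to 20 reads and was not tested. The 46 tested of 55 embryonic markers (of mesenchymal and glial crest, sensory and autonomic neurons and neural tube) summed to control levels of 476, 656 and 378 CPM and deficient levels of 337, 255 and 249.7 CPM, with Col1a1 the most abundant. The 12 macrophage markers, of which Ctss was the most abundant and none was at 0, summed to control levels of 12810, 12027 and 13948 CPM and deficient levels of 14075, 14690 and 15360 CPM. Macrophage markers thus outweighed embryonic markers in every library, controls included. On the TMM scale their sum was higher in each deficient library than in each control. The step between control replicate 3 and deficient replicate 1 was small. None of the 12 was called by edgeR, and 6 had groups apart with the deficient libraries higher (against 15.05% of all genes). With library totals 1 was higher at an unadjusted p under 0.05 by edgeR, in place of 8 (against 7.31% and 12.1% of all genes). The share of NCCs in the sorted cells, which the labels name as NCCs, was not measured here, and levels are those of the whole sort.

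Within the guidance genes, 31 of the 33 tested had a lower level in the deficient libraries and 2 (Efna3 and Ntng2) a higher one, a split that became 23 and 10 when the libraries were scaled to the embryonic markers. Under TMM 52.3% of all tested genes were lower, and 62.6% of those with a mean of 2 to 30 CPM. The median log2 fold change of the guidance genes was −0.94, against −0.02 over all tested genes and −0.09 over those with a mean of 2 to 30 CPM. By edgeR, 9 genes (27.3%) were called lower: the receptors Epha5, Ephb2, Ephb3 and Neo1 and the ligands Efna2, Efnb1, Efnb3, Slit1 and Slit3. Of all tested genes 4.88% were called lower, and of the 7784 genes with a mean of 2 to 30 CPM, the range in which most of these genes lie, 8.47%. No guidance gene was called higher by edgeR, DESeq2 or limma-voom, the 22 with an unadjusted p under 0.05 by edgeR being all lower (15.2% of all genes were lower and 12.1% higher at that p), and 0.0573% of all genes were called higher. An adjusted p no higher than 0.1 was reached, other thresholds aside, by 10 guidance genes, all lower, and by 7.75% of all genes in the lower and 4.18% in the higher direction (edgeR, Benjamini-Hochberg). The groups did not overlap, with the deficient libraries lower, in 19 of the 33 genes (57.6%), in 16.4% of all genes and in 19.7% of those with a mean of 2 to 30 CPM. Fewer cells of a type and less RNA per cell cannot be told apart in these bulk samples.

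**Figure D1:**
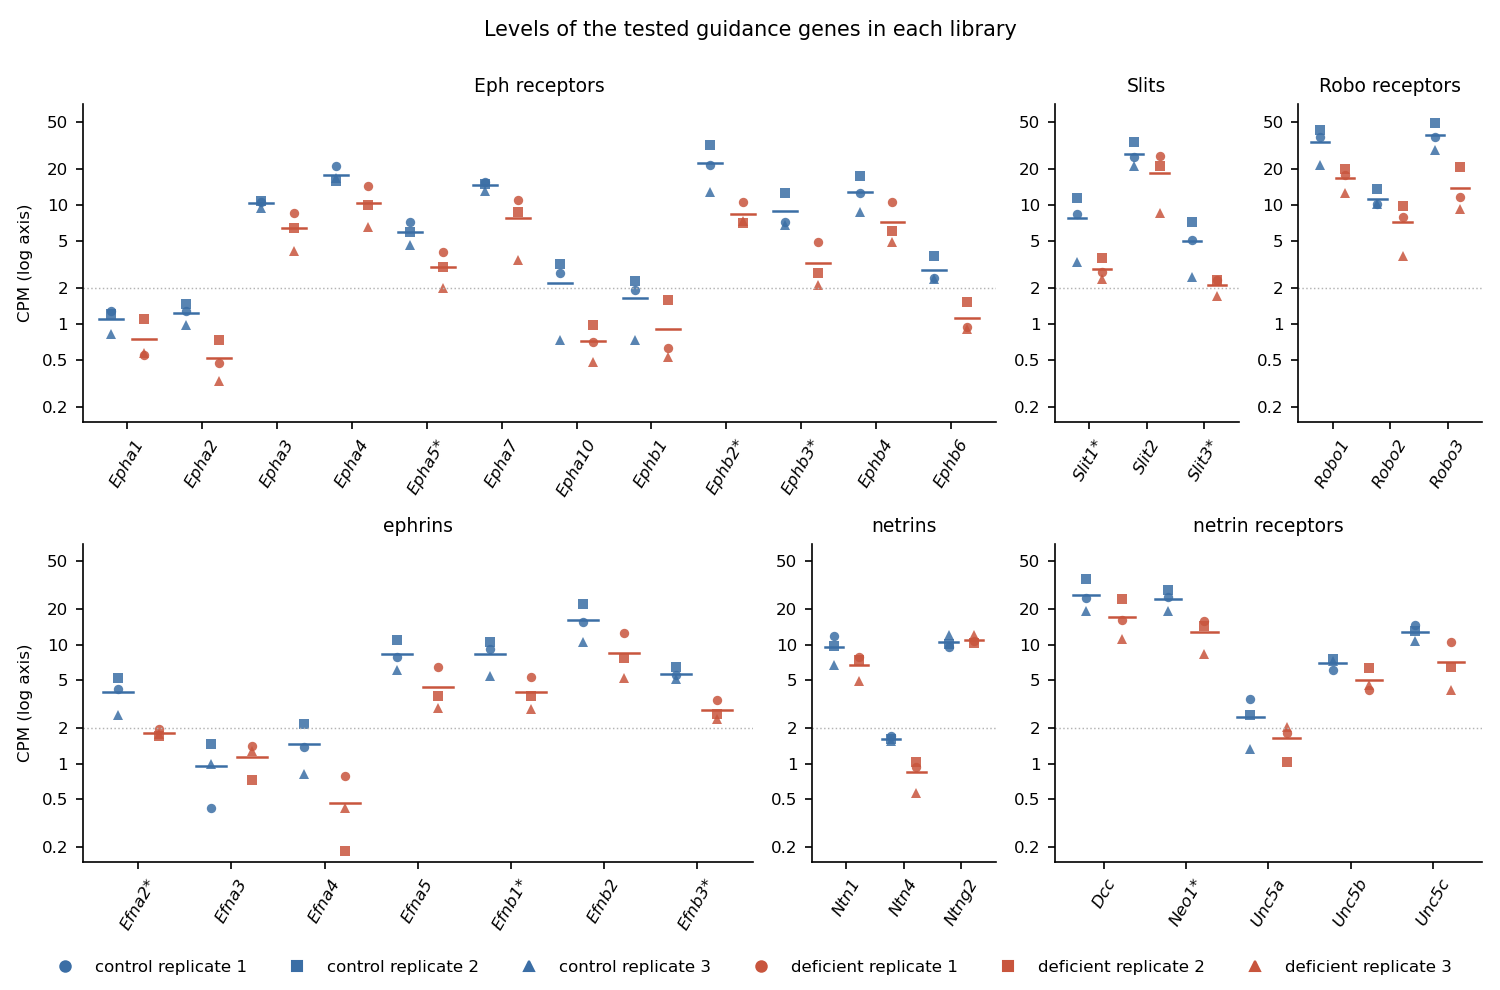
Level of each tested guidance gene (CPM, log axis) in the 3 control (blue) and 3 deficient (red) libraries, with group means as bars, the mean threshold of 2 CPM dotted and called genes starred. In 19 of 33 genes every deficient library lies below every control library on this scale, and in 5 of 33 when the libraries are scaled to embryonic markers, against 16.4% and 3.01% of all tested genes.

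Eph receptors were lower in the deficient libraries in 12 of 12 tested genes, except that Epha1 and Ephb1 turned higher under the embryonic scaling, and 3 of the 12 were called. The 7 EphA receptors, which bind the lipid-anchored ephrin-A proteins, had a median of −0.95 on the log2 scale with 1 call, and the 5 EphB receptors, which bind the transmembrane ephrin-B proteins, a median of −1.32 with 2 calls. Ephb2, a receptor known from commissural axons and crest streams (ENSMUSG00000028664.14, chr4:136647539-136835988, minus strand), had control levels of 21.8, 32.1 and 12.9 CPM and deficient levels of 10.6, 7.03 and 7.36 CPM. Control replicate 2 stood highest and the deficient libraries were all below the lowest control. The level was 2.66-fold lower, a log2 fold change of −1.41 ± 0.36 (edgeR, Benjamini-Hochberg adjusted p = 0.0901). Its close relative Ephb3 (ENSMUSG00000005958.14, chr16:21204755-21223305, plus strand) had control levels of 7.23, 12.6 and 6.73 CPM and deficient levels of 4.86, 2.69 and 2.14 CPM. Again control replicate 2 was highest and the groups did not overlap. Ephb3 fell by 1.47 on the log2 scale, with an error of 0.35 (edgeR, Benjamini-Hochberg adjusted p = 0.0701). Epha5, an EphA receptor of topographic axon maps (ENSMUSG00000029245.16, chr5:84054761-84417382, minus strand), had control levels of 7.23, 5.89 and 4.60 CPM and deficient levels of 3.99, 2.99 and 1.99 CPM. Its groups lay apart, though control replicate 3 and deficient replicate 1 were near each other. The log2 fold change of Epha5 was −0.99 ± 0.29 (edgeR, Benjamini-Hochberg adjusted p = 0.0850), and −0.71 after correction for exon length, which ended the call.

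Ephb6, an EphB protein without kinase activity, had control levels of 2.45, 3.75 and 2.38 CPM and deficient levels of 0.940, 1.53 and 0.902 CPM. The deficient values were all under the controls. Its log2 fold change of −1.32 ± 0.36 reached an adjusted p of 0.0775 (edgeR, Benjamini-Hochberg), but its mean of 1.99 CPM was just under the threshold of 2, so it was not called. Ephb4, a receptor for ephrin-B2 best known from veins and the Eph receptor with the highest control mean per exon length (2.79 ± 0.954 RPKM, SD, n = 3, above the 2.22 ± 0.352 RPKM of Epha4 by less than the SD of Ephb4), had control levels of 12.6, 17.5 and 8.70 CPM and deficient levels of 10.5, 6.05 and 4.89 CPM. Deficient replicate 1 was above control replicate 3, so the groups overlapped, and the log2 fold change of −0.86 ± 0.35 did not pass (edgeR, Benjamini-Hochberg adjusted p = 0.168; DESeq2 called it). The EphA receptors Epha2 (log2 fold change −1.26, at under 2 CPM in every library), Epha3 (log2 fold change −0.71), Epha4 (−0.82) and Epha7 (−0.95), which edgeR did not call, also had groups that did not overlap, and DESeq2 and limma-voom called Epha3, Epha4 and Epha7. Of these, Epha4 can bind ephrins of either class. Epha10 had the lowest fold change of the family (−1.57 ± 0.54), with 0.739 CPM in control replicate 3 against 2.66 and 3.21 CPM in the other controls, and Epha1 the highest (−0.54 ± 0.47). Epha6 and Epha8 were not tested, with 1 to 4 and 3 to 11 reads a library. The calls of Epha5, Ephb2 and Ephb3 ended on leaving out control replicate 1 (by edgeR, adjusted p after Benjamini-Hochberg of 0.269, 0.247 and 0.215), control replicate 2 (0.229, 0.188 and 0.199), deficient replicate 2 (0.152, 0.202 and 0.141) or deficient replicate 3 (0.277, 0.319 and 0.202). Over the edgeR, DESeq2 and limma-voom alternatives their Benjamini-Hochberg adjusted p ran from 0.0114 to 0.555, 1.04e-07 to 0.319 and 6.16e-07 to 0.215.

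Ephrins were lower in 6 of the 7 tested genes and Efna3 higher, in each scaling alternative, and 3 of the 7 were called. Efna2, an ephrin-A anchored to the membrane by a lipid (ENSMUSG00000003070.6, chr10:80179482-80190010, plus strand), had control levels of 4.25, 5.22 and 2.54 CPM and deficient levels of 1.96, 1.71 and 1.76 CPM. The deficient libraries were close together and below the controls, and the log2 fold change was −1.12 ± 0.31 (edgeR, Benjamini-Hochberg adjusted p = 0.0794). Efnb1, the X-linked ephrin-B whose loss in people causes craniofrontonasal syndrome (ENSMUSG00000031217.8, chrX:99136130-99148991, plus strand), had control levels of 9.15, 10.4 and 5.42 CPM and deficient levels of 5.33, 3.73 and 2.85 CPM. Control replicate 3 and deficient replicate 1 differed little, yet the groups did not overlap, and Efnb1 was 2.10-fold lower with a log2 fold change of −1.07 ± 0.30 (edgeR, Benjamini-Hochberg adjusted p = 0.0801). Efnb3, an ephrin-B of the neural midline (ENSMUSG00000003934.5, chr11:69554092-69560205, minus strand), had control levels of 5.53, 6.42 and 5.17 CPM and deficient levels of 3.45, 2.63 and 2.37 CPM. Within each group its values were even and the groups were well apart, and the log2 fold change of −1.02 ± 0.24 had the lowest adjusted p of the guidance genes (edgeR, Benjamini-Hochberg, 0.0644). Scaled to the embryonic markers, the groups of Efnb3 overlapped (edgeR, Benjamini-Hochberg adjusted p = 0.538).

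Efnb2, the ephrin-B of arteries and a partner of Ephb4, had control levels of 15.5, 21.8 and 10.5 CPM and deficient levels of 12.5, 7.76 and 5.27 CPM. Its groups overlapped through deficient replicate 1, and its log2 fold change of −0.91 ± 0.39 did not pass (edgeR, Benjamini-Hochberg adjusted p = 0.198; DESeq2 called it). Per exon length, Efnb1 (2.41 ± 0.755 RPKM, SD, n = 3) and Efnb2 (2.33 ± 0.826 RPKM) had the highest means of the ephrins in the controls, but Efna5 (2.06 ± 0.587 RPKM), Efna2 (1.88 ± 0.635 RPKM) and Efnb3 (1.79 ± 0.202 RPKM) were lower by less than the SD of either, so no order among them is read from this. Efna5, an ephrin-A, had groups that overlapped and a log2 fold change of −0.93 ± 0.31 that just missed the threshold (edgeR, Benjamini-Hochberg adjusted p = 0.103). It was called by DESeq2 and limma-voom and, by edgeR, with library totals, correction for exon length, no filter, a replicate block, without control replicate 3 or without deficient replicate 1. Efna4 had the lowest log2 fold change of the 33 genes (−1.62 ± 0.58), but its highest library held only 2.14 CPM, and Efna3 had the highest (0.27 ± 0.49), with control levels of 0.425, 1.47 and 0.985 CPM and deficient levels of 1.41, 0.733 and 1.28 CPM. Efna1 was not tested, with 2 to 12 reads a library. The calls of Efna2, Efnb1 and Efnb3 ended on leaving out control replicate 1 (by edgeR, adjusted p after Benjamini-Hochberg of 0.247, 0.249 and 0.218), control replicate 2 (0.255, 0.249 and 0.195), deficient replicate 2 (0.148, 0.157 and 0.114) or deficient replicate 3 (0.240, 0.251 and 0.207), and without control replicate 1 the log2 fold change of Efna3 was −0.08. Across the edgeR, DESeq2 and limma-voom alternatives the Benjamini-Hochberg adjusted p of the 3 ran from 0.0168 to 0.539, 6.42e-04 to 0.493 and 0.00985 to 0.538.

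Slits were lower in 3 of 3 genes, except that Slit2 turned higher under the embryonic scaling, and 2 of the 3 were called. Slit1, a repellent made in the nervous system (ENSMUSG00000025020.11, chr19:41600257-41743665, minus strand), had control levels of 8.40, 11.4 and 3.28 CPM and deficient levels of 2.74, 3.60 and 2.37 CPM. Control replicates 1 and 2 stood far above the rest, while control replicate 3 lay between deficient replicates 1 and 2, so the groups overlapped. The log2 fold change of Slit1 was −1.37 ± 0.42 (edgeR, Benjamini-Hochberg adjusted p = 0.0961). Slit3 (ENSMUSG00000056427.10, chr11:35121224-35708507, plus strand), a Slit also known from heart and diaphragm, had control levels of 5.11, 7.22 and 2.46 CPM and deficient levels of 2.35, 2.32 and 1.71 CPM. The groups did not overlap, by a narrow gap between control replicate 3 and deficient replicate 1, and Slit3 was 2.28-fold lower with a log2 fold change of −1.19 ± 0.37 (edgeR, Benjamini-Hochberg adjusted p = 0.0920). Slit2, the floor plate Slit, had control levels of 25.3, 33.4 and 21.1 CPM and deficient levels of 25.7, 21.4 and 8.55 CPM. Deficient replicates 1 and 2 lay among the controls and deficient replicate 3 far below them, and the log2 fold change of −0.53 ± 0.47 did not pass (edgeR, Benjamini-Hochberg adjusted p = 0.522). With one library left out, the log2 fold change of Slit2 ranged from −0.84 to −0.17. Per exon length the means of the 3 Slits in the controls differed by less than the SD of Slit1, at 1.30 ± 0.691 RPKM for Slit1, 1.05 ± 0.247 RPKM for Slit2 and 0.813 ± 0.393 RPKM for Slit3 (SD, n = 3). With a library left out, the calls of Slit1 and Slit3 were kept in a single case, without control replicate 3, and they ended on leaving out control replicate 1 (by edgeR, adjusted p after Benjamini-Hochberg of 0.263 and 0.260), control replicate 2 (0.274 and 0.293) or deficient replicates 1 (0.149 and 0.1003), 2 (0.157 and 0.159) or 3 (0.313 and 0.284), with ranges of 2.18e-05 to 0.313 and 0.00577 to 0.456 over the alternatives. They were also lost in limma-voom (Benjamini-Hochberg adjusted p = 0.140 and 0.137) and in edgeR with a minimum count of 30 (0.105 and 0.101), and kept in DESeq2 and, by edgeR, with library totals, correction for exon length, no filter or a replicate block.

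Robo receptors were lower in 3 of 3 tested genes, except that Robo2 turned higher under the embryonic scaling. Under TMM their groups did not overlap in any of the 3, as in 16.4% of all genes with the deficient libraries lower. Under the embryonic scaling the groups of Robo1 and Robo2 overlapped and those of Robo3 did not. None was called by edgeR in the main fit, where 2 had an unadjusted p under 0.05, while DESeq2 and limma-voom called 2 each, Robo1 and Robo3. Robo3, a divergent Robo of commissural neurons that lets axons cross the midline, had control levels of 36.9, 49.1 and 29.0 CPM and deficient levels of 11.7, 20.9 and 9.21 CPM. Every control was above every deficient library, and the 2.74-fold lower mean, a log2 fold change of −1.45 ± 0.38, came just short of the threshold (edgeR, Benjamini-Hochberg adjusted p = 0.101). At 5.60 ± 1.48 RPKM in the controls (SD, n = 3), Robo3 was the most abundant of the 33 genes per exon length. Robo1, the broadly used Slit receptor, had control levels of 36.9, 42.4 and 21.6 CPM and deficient levels of 17.9, 20.1 and 12.7 CPM. Control replicate 3 was the lowest control and still above deficient replicate 2, and the log2 fold change was −0.98 ± 0.31 (edgeR, Benjamini-Hochberg adjusted p = 0.118). Robo2, which acts with Robo1 in Slit signals, had a log2 fold change of −0.66 ± 0.34, which ranged from −0.97 to −0.33 with one library left out. Robo4, the endothelial Robo, was not tested, with 3 to 11 reads a library. Robo3 was called on leaving out control replicate 3 (by edgeR, adjusted p after Benjamini-Hochberg of 0.0813) or deficient replicate 2 (0.0480), in a range of 3.78e-06 to 0.295 over its alternatives, and Robo1 without control replicate 3 (0.0139), in a range of 1.13e-04 to 0.677. With all libraries, edgeR called Robo1 with library totals, Robo1 and Robo3 after correction for exon length, Robo1 and Robo2 with no filter, and all 3 with a replicate block.

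Netrins and netrin-G proteins had 2 lower genes and 1 higher among the 3 tested, and under the embryonic scaling Ntn1 turned higher too. None was called by edgeR, DESeq2 or limma-voom, and 1 had an unadjusted p under 0.05 by edgeR. Ntn1, the netrin of the floor plate, had control levels of 11.9, 9.77 and 6.73 CPM and deficient levels of 7.83, 7.39 and 4.99 CPM. Deficient replicates 1 and 2 were above control replicate 3, and the log2 fold change of −0.49 ± 0.24 did not pass (edgeR, Benjamini-Hochberg adjusted p = 0.216); without control replicate 3 it was called at −0.70 (edgeR, Benjamini-Hochberg adjusted p = 0.0571, in a range of 0.0571 to 0.582). Ntng2, a membrane-anchored netrin-G that does not bind Dcc and the most abundant of the family per exon length (2.64 ± 0.321 RPKM in the controls, SD, n = 3), had control levels of 9.57, 10.03 and 11.98 CPM and deficient levels of 10.7, 10.3 and 12.01 CPM. Its values were alike in all libraries, with a log2 fold change of 0.06 ± 0.15 that fell marginally below 0 without control replicate 1 or deficient replicate 3 (−0.01 in the latter). Ntn4, a basement membrane netrin, had the lowest log2 fold change (−0.95 ± 0.40), at under 2 CPM in every library. Ntng1 was not tested, with 3 to 12 reads a library.

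Netrin receptors were lower in 5 of 5 tested genes, but Dcc, Unc5a and Unc5b turned higher under the embryonic scaling, and 1 of the 5 was called. Neo1, neogenin, a Dcc relative that binds netrins and repulsive guidance molecules (ENSMUSG00000032340.7, chr9:58874687-59036441, minus strand), had control levels of 25.2, 28.5 and 19.3 CPM and deficient levels of 15.8, 14.2 and 8.26 CPM. The deficient libraries were all under the lowest control, deficient replicate 3 furthest, and the log2 fold change was −0.94 ± 0.26 (edgeR, Benjamini-Hochberg adjusted p = 0.0937). Dcc, the receptor for attraction by netrins, had control levels of 24.5, 35.3 and 19.2 CPM and deficient levels of 16.1, 24.3 and 11.2 CPM. Deficient replicate 2 was near control replicate 1 and above control replicate 3, so the groups overlapped, and the log2 fold change of −0.61 ± 0.37 did not pass (edgeR, Benjamini-Hochberg adjusted p = 0.354). With a replicate block edgeR called Dcc, and with one library left out its log2 fold change ranged from −0.95 to −0.35. Its Benjamini-Hochberg adjusted p ran from 0.00210 to 0.747 over the edgeR, DESeq2 and limma-voom alternatives. Per exon length Neo1 (2.79 ± 0.535 RPKM) was above Dcc (1.999 ± 0.624 RPKM) in the control means (SD, n = 3), by more than the SD of either. Among the Unc5 receptors, which turn netrin signals to repulsion, Unc5c had groups that did not overlap (log2 fold change −0.87, called by DESeq2 and limma-voom), and Unc5b had the highest fold change of the family (−0.46 ± 0.22). Unc5d was not tested, with 1 to 13 reads a library. Neo1 was no longer called on leaving out control replicate 1 (by edgeR, adjusted p after Benjamini-Hochberg of 0.257), control replicate 2 (0.284), deficient replicate 2 (0.171) or deficient replicate 3 (0.139) and with a minimum count of 30 (0.101), in a range of 1.53e-08 to 0.648 over the edgeR, DESeq2 and limma-voom alternatives.

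Median log2 fold changes were −0.90 over the 20 tested receptors and −0.95 over the 13 tested ligands, −0.20 and −0.24 under the embryonic scaling, and −0.70 and −0.93 after correction for exon length, where the classes lay further apart. Of the receptors 4 were called lower and of the ligands 5, and the difference between the classes was not tested. Summed as RPKM, receptors stood to ligands as 1.47, 1.43 and 1.49 in the controls and as 1.176, 1.49 and 1.02 in the deficient libraries. The groups overlapped in this ratio, with deficient replicate 2 at the level of the controls. EphB to EphA receptors gave 0.945, 1.54 and 0.880 in the controls and 0.936, 0.804 and 1.12 in the deficient libraries, and Robo receptors to Slits 2.52, 2.38 and 3.43 against 1.75, 2.65 and 2.29. Neither ratio separated the groups. Of 7 ratios between single genes, the ratio of Ephb3 to Ephb4 was the only one without overlap, at 0.403, 0.501 and 0.540 in the controls and 0.323, 0.311 and 0.305 in the deficient libraries. These ratios were not tested, and 1 of 7 is read against the 16.4% of all genes whose own levels did not overlap with the deficient libraries lower and the 15.05% with them higher, so nothing particular to Ephb3 is drawn from it.

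Scaling each library to the median level of 35 embryonic marker genes of 2 CPM or more on average, guidance genes left out, moved the all-gene median from −0.02 to 0.72 on the log2 scale. It turned the calls over all genes from 681 lower and 8 higher to 1 lower and 40 higher, and 0 guidance genes were called lower by edgeR, the one tool run with this scaling. An unadjusted p under 0.05 was reached there by 0 guidance genes in the lower and 2 in the higher direction (Ntng2 and Efna3), and by 1.26% and 39.5% of all genes. The setting takes the average embryonic marker as unchanged, so any change that these markers share is taken out. The median log2 fold change of the 33 guidance genes was then −0.20, which is −0.93 relative to all genes, against −0.92 relative to all genes under TMM. A change of library factors shifts all genes by nearly the same amount. Values relative to all genes therefore stay near those of TMM by construction, and are no check on the scaling. Relative to all genes under this scaling, the medians were −1.003 for EphA receptors, −1.28 for EphB receptors, −1.02 for ephrins, −1.09 for Slits, −0.92 for Robo receptors, −0.47 for netrins and −0.57 for netrin receptors. On the scale itself the netrins (median 0.26) and netrin receptors (0.16) turned higher, while the other families kept a negative median. Ephb3 (−0.73), Robo3 (−0.69) and Ephb2 (−0.59) were among the lowest, and Ntng2 (0.80) and Efna3 (1.03) the highest. On this scale the groups stayed apart, deficient lower, in 5 guidance genes (Ephb2, Ephb3, Efna4, Efnb1 and Robo3), against 3.01% of all genes. With library totals in place of TMM no tested guidance gene changed direction, and 12 were called lower, the 9 calls among them, as were 4.95% of all genes.

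**Figure D2:**
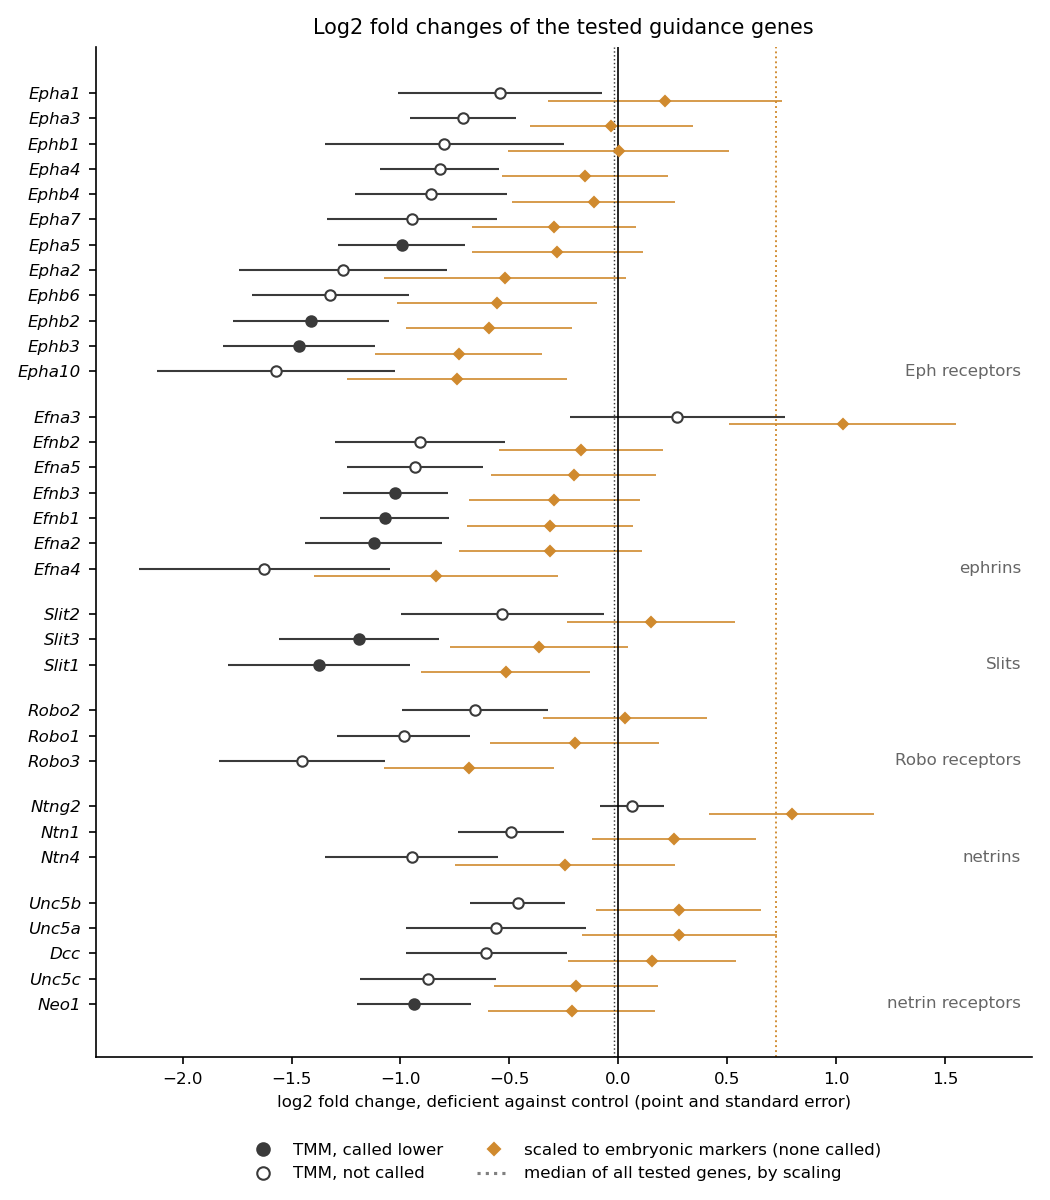
Log2 fold change (deficient against control, bars are standard errors) of each tested guidance gene under TMM (circles, filled where called lower) and with libraries scaled to embryonic markers (diamonds), with the all-gene median of each scaling dotted at −0.02 and 0.72. Under TMM 31 of 33 genes lie below 0, and 23 of 33 do so when scaled to embryonic markers, where none is called.

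The summed level of the guidance genes was 369.6, 446 and 275 CPM in the control and 235, 219.6 and 136 CPM in the deficient libraries, so control replicate 2 was highest and deficient replicate 3 lowest, with no overlap. The sum of the embryonic markers was also highest in control replicate 2 and lowest in deficient replicate 3. Within the deficient libraries it took other steps than the guidance sum, at 337, 255 and 249.7 CPM. Control replicate 2 held the highest level of 24 of the 33 genes and control replicate 1 of 8, and deficient replicate 3 the lowest of 25. Set against the embryonic markers, the sum of the guidance genes was 0.776, 0.679 and 0.728 in the controls and 0.697, 0.860 and 0.545 in the deficient libraries. In this ratio the groups overlapped, with deficient replicates 2 and 3 at its ends. Of the 46 tested embryonic markers, 45 were lower and 16 were called lower, at a median log2 fold change of −0.93, close to that of the guidance genes. The mesenchymal crest markers had 10 calls of 15 tested (median −1.13), the sensory neuron markers 4 of 9 (−1.28), the autonomic markers 0 of 4 (−0.72, 1 with an unadjusted p under 0.05), the glial crest markers 1 of 5 (−0.98) and the neural tube markers 1 of 13 (−0.72), all in edgeR, against 4.88% of all genes. With one library left out, the glial crest median ranged from −1.39 to −0.39 and the neural tube median from −0.93 to −0.42. The sensory neuron median ranged from −1.59 to −0.85. As with the guidance genes, the 16 marker calls hung on the libraries kept: edgeR called 0 without control replicate 1 or deficient replicate 3 (where 23 and 18 were lower at an unadjusted p under 0.05), 2 without control replicate 2, 3 without deficient replicate 2, 24 without control replicate 3 and 18 without deficient replicate 1. Scaled to the same markers it called 0 (6 lower at an unadjusted p under 0.05), while with all libraries DESeq2 called 21 and limma-voom 15. The 12 macrophage markers were all higher with a median of 0.19, and 5 tested endothelial markers summed to 177, 174 and 196 CPM against 199.8, 199.7 and 212 CPM. Most of that sum was Kdr (log2 fold change 0.17), while Pecam1 (0.05), Cdh5 (0.06), Tie1 (−0.14) and Esam (0.23) were at low levels, so it is in the main the value of a single gene. Of the erythroid markers 7 were tested, led by Hbb-y, with 5 lower and 2 higher (Hba-a1 at 0.02 and Hbb-bs at 0.20), a median of −1.73 and sums of 29.7, 72.6 and 20.5 CPM against 21.6, 15.2 and 19.8 CPM, which stood highest in control replicate 2 and overlapped. The erythroid median was −0.60 without control replicate 2 and −2.17 without control replicate 3. In the main fit edgeR called 0 erythroid markers, and without control replicate 3 it called 4 lower (against 8.45% of all genes). With all libraries DESeq2 called 3 lower (against 6.22% of all genes) and limma-voom 1 (against 5.94%). Of the neutrophil markers 3 were tested, led by S100a8, with 2 higher and Ngp lower (−0.27) and sums of 18.5, 16.6 and 21.4 CPM against 26.5, 23.0 and 24.7 CPM. The part of any of these cell types in the levels of the guidance genes was not tested.

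**Figure D3:**
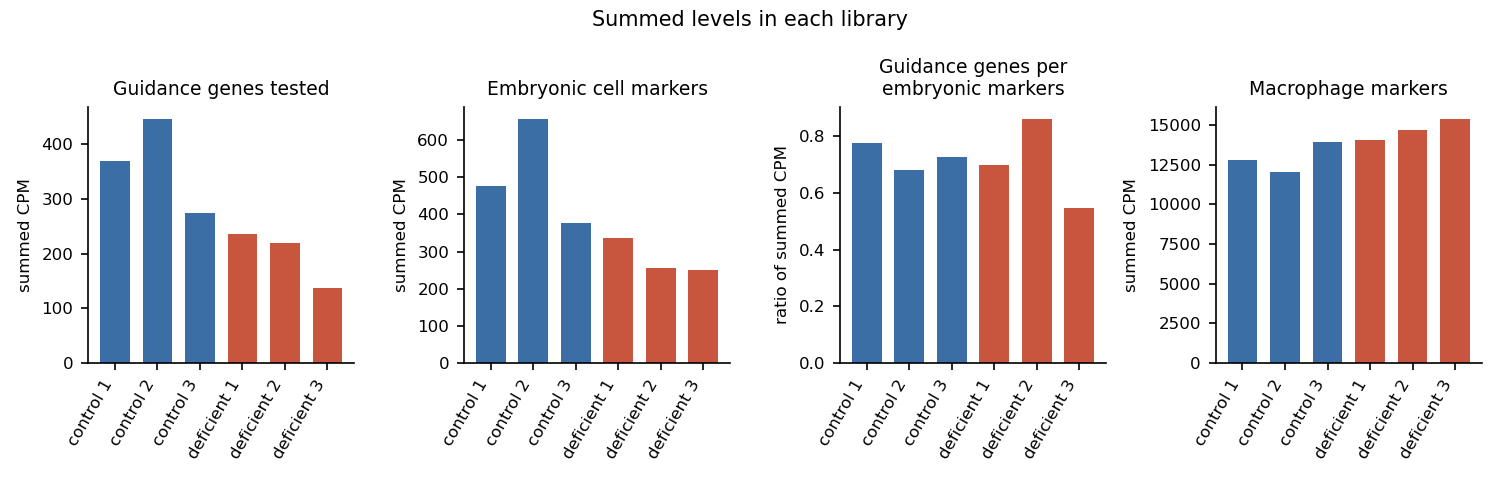
Summed CPM of the 33 tested guidance genes, the 46 tested embryonic markers and the 12 macrophage markers in each library (blue control, red deficient), and the ratio of the guidance sum to the embryonic sum. The guidance sum is highest at 446 CPM (control replicate 2) and lowest at 136 CPM (deficient replicate 3), while the ratio overlaps between the groups, from 0.545 in deficient replicate 3 to 0.860 in deficient replicate 2.

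The number of guidance genes called lower hung on which libraries were kept. Leaving out control replicate 1, control replicate 2 or deficient replicate 3 gave 0 calls, where edgeR gave 15, 13 and 18 guidance genes, all lower, an unadjusted p under 0.05 (against 11.3%, 9.79% and 10.7% of all genes in that direction), and leaving out deficient replicate 2 gave 2 (Ephb6 and Robo3), so that none of the 9 calls was kept in these 4 settings. Without control replicate 3 the number was 16, which kept the 9, and without deficient replicate 1 it was 15, which kept 7. The calls over all genes moved in the same way, to 0, 61, 17 and 219 lower in the first 4 settings and to 1219 and 1030 lower in the last ones. The direction did not hang on a library for 31 of the 33 genes, Efna3 and Ntng2 being the exceptions, and the median over the 33 genes lay between −1.18 and −0.70. DESeq2 called 18 guidance genes lower, with the 9 among them, and 6.22% of all genes, and limma-voom 14, with 7 of the 9, and 5.94% of all genes.

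Beside ligands and receptors, 49 genes for partners and effectors of these pathways were examined, of which 45 were tested. Of these 34 were lower and 11 higher (median log2 fold change −0.28), a split that turned to 12 lower and 33 higher under the embryonic scaling (median 0.46, or −0.27 relative to all genes). In edgeR 11 were called lower (24.4%, against 4.88% of all genes), and 10 each in DESeq2 and limma-voom (against 6.22% and 5.94% of all genes). None was called higher in any of these tools, where 4 of the higher partners had an unadjusted p under 0.05 (against 12.1%, 10.4% and 11.4% of all genes in edgeR, DESeq2 and limma-voom), and under the embryonic scaling edgeR called 0 in either direction, with 3 lower and 6 higher at an unadjusted p under 0.05 (against 1.26% and 39.5% of all genes). Calls numbered 1 of 15 for the Eph and ephrin pathway, 4 of 14 for Slits and Robo receptors and 6 of 16 for netrins. Draxin, a secreted ligand of Dcc, had control levels of 7.02, 8.56 and 5.33 CPM and deficient levels of 2.98, 1.59 and 2.52 CPM. The groups were well apart, and Draxin had the lowest adjusted p of the partners, with a log2 fold change of −1.55 ± 0.28 (edgeR, Benjamini-Hochberg adjusted p = 0.0455). Rgmb, a repulsive guidance molecule that binds neogenin, had control levels of 18.6, 24.7 and 14.4 CPM and deficient levels of 10.4, 7.52 and 9.40 CPM. Its groups did not overlap, at a log2 fold change of −1.07 ± 0.20 (edgeR, Benjamini-Hochberg adjusted p = 0.0483), and Rgma, its relative, was called as well (−1.32 ± 0.40). Nell2, a ligand of Robo3, had control levels of 6.81, 12.6 and 4.76 CPM and deficient levels of 2.04, 3.06 and 2.42 CPM. Its controls were uneven but all above the deficient libraries (log2 fold change −1.65 ± 0.35; edgeR, Benjamini-Hochberg adjusted p = 0.0573).

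Enah, an actin regulator that binds Robo1, had control levels of 44.1, 59.7 and 33.1 CPM and deficient levels of 24.2, 17.1 and 13.4 CPM. It was lower in each deficient library than in each control, with a log2 fold change of −1.33 ± 0.31 (edgeR, Benjamini-Hochberg adjusted p = 0.0901). Trim67 (−1.81 ± 0.43) and Trim9 (−0.88 ± 0.29), ubiquitin ligases that bind Dcc, fell, as did Flrt1 (−1.75 ± 0.42), of a family of Unc5 ligands. Vav2 (−0.54), an exchange factor that binds Eph receptors, and Dscam (−1.45), a netrin receptor, had an adjusted p no higher than 0.1 (edgeR, Benjamini-Hochberg) but missed the fold or the CPM threshold. Vasp, a relative of Enah, was the 1 partner with such a p in the higher direction, with control levels of 244, 238 and 275 CPM and deficient levels of 284, 292 and 292 CPM. Its deficient libraries were all above its controls by a small step, a log2 fold change of 0.20 ± 0.06. Leaving out control replicate 1 or deficient replicate 3 brought the partners called lower by edgeR to 0, each time with 13 lower at an unadjusted p under 0.05 (against 11.3% and 10.7% of all genes), and they numbered 1 without control replicate 2 and 3 without deficient replicate 2.

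The guidance genes are long and of modest level. Their median exon length was 6277 bases and their median span 106527 bases, against 4322 and 21757 bases over the tested genes with an annotation, and their median level was 6.15 CPM against 11.3 CPM. Corrected for each library's trend with exon length, 11 of the 33 were called lower, 8 of the 9 among them, as were 4.43% of all genes, and the median log2 fold change was −0.78. Exons of 9 of the 33 genes share bases with another annotated gene, and none of these 9 was among those called. Ntng2 shares 14.0% of its exon bases with 6530402F18Rik on its own strand, and on the opposite strand Efna3 shares 14.1% with Gm15998, Efna4 10.5% with 4731419I09Rik and Epha1 6.01% with Zyx. Reads from these shared bases were not separated here, while most of the exon bases of each of these genes are its own. Whether the counting used strand, which bears on the opposite-strand pairs, is not given in the sources used here.

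Promoters were described because many of these genes were lower together under TMM. In the table of RefSeq promoters on GRCm38.p6 used here, 35 of the 40 genes were matched, with 40 promoters in all, and Efnb3, Slit1, Ntn1, Dcc and Unc5d were not matched. The start is the one RefSeq gives, and for 34 of the 40 promoters the bases after it lie in a GENCODE M21 transcript of the gene. In the 250 bases before the start, the guidance promoters held a median of 17.5 CG dinucleotides (range 2 to 46), against 15 in 12968 promoters of all tested genes and 15 in 699 promoters of all genes called lower. The 7 called genes with a promoter had a median of 20 (range 13 to 45), and the 26 promoters of tested but not called guidance genes 16.5. Median GC content was 65.2% in guidance promoters and 59.6% over all tested genes. Below are the windows of a called Eph receptor, a called ephrin and a called netrin receptor that meet no annotated exon, 5′ to 3′ on the strand of the gene with each CG in capitals: Ephb2 at chr4:136836013-136836262 (minus strand, 20 CG), Efnb1 at chrX:99135811-99136060 (plus strand, 13 CG) and Neo1 at chr9:59036442-59036691 (minus strand, 45 CG). Those of Ephb2 and Efnb1 are among the 6 whose start is not in such a transcript, and they end short of the annotated gene, while that of Neo1 adjoins it.
Ephb2: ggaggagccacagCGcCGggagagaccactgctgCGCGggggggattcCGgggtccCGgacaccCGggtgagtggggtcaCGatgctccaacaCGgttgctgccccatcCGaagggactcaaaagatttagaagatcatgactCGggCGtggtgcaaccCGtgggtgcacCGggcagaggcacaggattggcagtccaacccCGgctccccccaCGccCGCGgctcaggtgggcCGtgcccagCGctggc
Efnb1: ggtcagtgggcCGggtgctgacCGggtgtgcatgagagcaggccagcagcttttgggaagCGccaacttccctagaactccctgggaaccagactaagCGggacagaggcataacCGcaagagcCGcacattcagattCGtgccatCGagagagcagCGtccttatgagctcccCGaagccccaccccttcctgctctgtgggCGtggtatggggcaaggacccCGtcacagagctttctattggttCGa
Neo1: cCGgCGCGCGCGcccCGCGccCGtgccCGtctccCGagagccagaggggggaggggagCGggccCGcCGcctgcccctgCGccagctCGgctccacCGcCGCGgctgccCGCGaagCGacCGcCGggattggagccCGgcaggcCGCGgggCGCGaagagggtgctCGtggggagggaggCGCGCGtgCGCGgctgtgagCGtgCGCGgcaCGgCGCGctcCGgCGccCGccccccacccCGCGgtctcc

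The letters GGAATG, the core bound by Tead factors, which the study examined as partners of the BAF complex, were searched on both strands of the same windows. They occurred in 6 of the 40 guidance promoters (15%), those of Efnb2, Epha1, Epha2, Epha3, Ntn3 and Ntng1, in 10.7% of promoters of all tested genes, in 9.73% of those of all genes called lower and in 12.6% of all 32851 promoters. The 40 promoters include those of genes that were not tested, such as Ntn3 and Ntng1. Of the 7 promoters of called guidance genes 0 held the letters, and of the 26 of tested but not called guidance genes 4 did (15.4%). A match describes the letters of a window and is neither a site nor a cause. The study looked for Tead binding motifs in longer promoters of its differentially expressed genes, so its result is not set against these windows. The RefSeq window of Efnb2, the ephrin-B of arteries, is shown on GRCm38.p6 with the match in capitals, at chr8:8661243-8661492 (minus strand).
Efnb2: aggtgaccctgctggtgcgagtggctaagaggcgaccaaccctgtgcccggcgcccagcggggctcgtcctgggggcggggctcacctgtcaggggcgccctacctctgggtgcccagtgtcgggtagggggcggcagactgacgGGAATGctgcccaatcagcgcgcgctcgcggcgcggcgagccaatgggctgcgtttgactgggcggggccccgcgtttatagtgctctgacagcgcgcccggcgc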

How the data were processed

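RNA of GFP-positive cells sorted from embryos heterozygous or homozygous for the floxed BAF155 and BAF170 alleles was made into strand-specific poly(A) libraries, 3 of each genotype. Per the submitters' processing notes, reads were checked with FastQC 0.11.7, trimmed with cutadapt 1.18, aligned to GRCm38 with STAR and counted with featureCounts. The authors deposited raw counts per gene, whole numbers without normalization, in a table with 0 columns that could not be matched to a sample. The annotation release, the strand setting and the treatment of reads with several matches are not given in the sources used here. Identifiers were matched without their version to GENCODE M21, which left 495 of 46983 unnamed, with at most 0.0706% of the counts of a library.

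Here the counts were filtered with filterByExpr (minimum count 10, minimum total 15), scaled by TMM and fitted with the robust quasi-likelihood model of edgeR 4.0.16 in R 4.3.3, with genotype as the one term and Benjamini-Hochberg adjustment over all 13961 tested genes, at a biological coefficient of variation of 12.8%. Standard errors are the log2 fold change divided by the root of the F statistic. RPKM is CPM per kilobase of merged exons. No gene set was tested. The fit was tested on simulated data. Sums and figures were made with Python 3.11.15, numpy 2.4.6, pandas 2.3.3 and matplotlib 3.10.9. Replicate numbers come from the sample titles, and no pair of libraries of a genotype agreed within sampling noise (chi-square per degree of freedom from 8.39 to 46.5).

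The guidance genes, the partner and marker lists and the alternatives were chosen with earlier results of these data known. Values in every library were to be given for genes that were called, had an adjusted p no higher than 0.1 by edgeR with Benjamini-Hochberg adjustment or were the most abundant of their family, then fold changes for those with groups apart and for the lowest and highest of a family, and for up to 10 partners by p. Values in every library for Efna3, Efnb2, Slit2, Robo1, Ntn1, Dcc, Twist1, Sox10, Draxin, Rgmb, Nell2, Enah and Vasp, and the naming of Efna5, Rgma, Trim9, Foxd3 and single markers, were chosen after the values were seen. The values of some called partner genes are not reported here. Alternatives were DESeq2 1.42.0, limma-voom (limma 3.58.1), library totals, scaling to 35 embryonic markers, offsets corrected for a lowess trend with exon length, no filter, a minimum count of 30, other thresholds, a replicate block and each library left out in turn. Their use on partners, on markers, on Smarcc1 and Smarcc2 and on the overlap of groups was added after seeing the data.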

Additional observations from a re-analysis of the deposited data

How the results depend on the processing

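Of 481 results of single genes under an alternative, 351 kept their direction and their side of the threshold, 59 gained a call, 58 lost one and 13 changed direction. Guidance genes called lower numbered 9 in edgeR (4.88% of all genes), 18 in DESeq2 (6.22%), 14 in limma-voom (5.94%), 18 with no filter on low counts (3.02%) and 0 at an adjusted p threshold of 0.05 (0.673%; edgeR, Benjamini-Hochberg; 22 had an unadjusted p under 0.05, all lower, against 15.2% of all genes), each share being that of all genes tested in the same fit. Scaled to the embryonic markers they numbered 0 (at an unadjusted p under 0.05, 0 lower and 2 higher, against 1.26% and 39.5% of all genes), the median log2 fold change was −0.20 over the guidance genes, −0.20 over receptors and −0.24 over ligands (−0.70 and −0.93 after correction for exon length), and 5 in place of 19 guidance genes had groups that did not overlap with the deficient libraries lower (3.01% of all genes in place of 16.4%). The log2 fold change changed sign under that scaling in Epha1 (0.22), Ephb1 (0.0017), Slit2 (0.15), Robo2 (0.032), Ntn1 (0.26), Dcc (0.16), Unc5a (0.28), Unc5b (0.28), Smarcc1 (0.063) and Smarcc2 (0.63). By design the scaling evens the median level of the embryonic markers over the libraries, and in these data the all-gene median moved with it to 0.72. Partner genes called lower numbered 11 in edgeR, 0 under that scaling and 2 at an adjusted p threshold of 0.05, and 1 partner was called higher by adjusted p alone (edgeR, Benjamini-Hochberg). With one library left out, guidance genes called lower ranged from 0 to 16 and partners from 0 to 13, the log2 fold change of Efna3 from −0.076 to 0.64 and that of Ntng2 from −0.0095 to 0.17, where it was −0.0019 without control replicate 1. A replicate block called 20 guidance genes lower, the 9 among them, and 8.19% of all genes. The deviations of libraries with one title number correlated at 0.028, −0.034 and 0.29. Of 6 libraries 2 correlated best with their own number, those of replicate 3. With so few libraries this cannot decide whether the title numbers mark a shared litter or batch. The column names of the counts number the deficient libraries differently from the titles. A pairing by the column names was not tested, and the replicate block used the title numbers. The cause of the other changes was not tested.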
